A study of Mus musculus with 14 samples.

Results

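Potassium channels and TRP channels set how an epithelial cell holds its membrane voltage and lets cations in. Potassium channels are built from pore subunits, often with auxiliary subunits that change gating or traffic, and potassium leaving through them keeps the cell interior negative, which drives the entry of calcium and the secretion of chloride and fluid. TRP channels are mostly non-selective cation channels opened by lipids, internal calcium, temperature or stretch, and some of them carry calcium or magnesium. In the mammary gland, the luminal cells that line ducts and alveoli are the layer that moves ions into milk. Here 114 genes of these families were described, of 22180 genes with a symbol on the array (122 of 23521 probe sets). They were chosen by symbol, with earlier results of these data known. Members are the Kcn genes with a number in their name, and Abcc8 and Abcc9, which encode the sulfonylurea receptors of ATP-sensitive potassium channels. The others are the Trpc, Trpm, Trpv and Trpa1 genes and the mucolipins Mcoln2 and Mcoln3. Of the 114 genes, 91 are potassium channel genes and 23 are TRP or mucolipin genes. The 91 include Kcnq1ot1 and Kcnd3os, 2 RNAs named after a channel gene that encode no channel.

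RNA came from freshly isolated luminal cells of untreated adult virgin female mice, 4 to 6 months old, of the BALB/cByJ JAX and C57Bl/6 strains, with no transgene or deletion described for these samples. Which strain a sample came from was not given in the sources used here. Cells were sorted into LuNeg (CD24+ ICAM1-) and LuPos (CD24+ ICAM1+), 7 arrays of each, and the study separates with this gate hormone-sensing cells (LuNeg) from a fraction rich in clonogenic progenitors (LuPos). Each of the 7 pools joined at least 12 glands of several mice. The study's methods use a paired test, and the LuNeg and LuPos samples with the same replicate number were taken here as a pair. Values were deposited as log2 intensities, 1 for each probe set, so that a step of 1 is a doubling of signal. Probe sets differ in how well they bind, so each gene is compared between populations and not with other genes. No count of reads stands behind an array value, so precision rests on the number of arrays.

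The labels were checked against markers first. All 9 general luminal markers, such as the keratins Krt8 and Krt18 and the adhesion gene Epcam, lay above the level of the olfactory receptor genes described below. Of them Ehf was called higher in LuPos (log2 fold change 1.78, adjusted p = 0.000406 by limma) and Krt19 lower (-0.49, adjusted p = 0.0117). The other 7 were not called. Of 8 measured hormone-sensing markers 8 were lower in LuPos, and of 12 luminal progenitor markers 11 were higher. The progenitor list holds Icam1, the gene of the sort marker, and the study reported several genes of both lists as differing in these arrays. This checks the labels and is no independent evidence on the populations. Basal markers averaged 4.03 to 6.55 over LuNeg arrays and 4.85 to 6.13 over LuPos arrays, and none of the 10 measured differed by the test used below. Of 12 immune markers 2 lay above the olfactory receptor level, and their mean over an array ranged from 2.77 to 3.31 in LuNeg and from 3.09 to 3.41 in LuPos. Of 9 endothelial markers Vwf was called lower in LuPos (log2 fold change -1.20, adjusted p = 0.00155 by limma), and of 13 fibroblast, adipocyte and pericyte markers outside the families described Dcn was (-0.49, adjusted p = 0.0117), both in 7 of 7 pairs. The mean of the endothelial list ranged from 3.94 to 5.80 and from 3.51 to 5.70, and that of the fibroblast, adipocyte and pericyte list from 4.22 to 5.55 and from 4.88 to 5.33. Such means hide wide differences between genes. In the last list Dcn was at 9.38 in LuNeg and 8.89 in LuPos, and Fabp4 at 8.47 and 8.36. Others in it, such as Adipoq and Pdgfra, lay under the olfactory receptor level. Of 6 nerve and Schwann cell markers 1 lay above the olfactory receptor level. The part of these other cells in the results below was not tested.

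Most channel genes gave no more signal than genes these cells do not use. Olfactory receptor genes served as that reference: the 95th percentile of the mean levels of 1105 of them was 3.70, and 33 of the 114 channel genes, 28.9%, lay above it, against 50.5% of all genes. The lowest member inside was Kcnmb3 at 3.71 and the highest outside was Kcnh8 at 3.69. By family, 7 of 36 voltage-gated pore subunit genes lay above the level, 3 of 8 calcium- or sodium-activated pore genes, 4 of 14 inward rectifiers, 6 of 13 tandem-pore-domain channels, 2 of 2 sulfonylurea receptors and 3 of 16 auxiliary subunits. Of the TRP families, 3 of 6 Trpc, 3 of 8 Trpm and 1 of 6 Trpv genes lay above it, and Trpa1, Mcoln2 and Mcoln3 lay under it. The limit is soft, since 5% of the olfactory receptor genes lie above it too. At their 99th percentile, 4.75, 12 members were left: Kcnk1, Kcnk4, Kcnk5, Kcna4, Kcnh1, Kcnn4, Abcc8, Kcnq1ot1, Trpc6, Trpm4, Trpm6 and Trpm7.

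LuPos was compared with LuNeg by limma with pairs as a blocking factor, and p-values were adjusted over all 22180 genes by the Benjamini-Hochberg method. At an adjusted p under 0.05, 4 channel genes were higher and 9 were lower in LuPos, 13 of 114 or 11.4%, beside 11.5% of all genes (4.35% higher and 7.19% lower), a share close to that background. The higher genes were Kcnk5, Kcnn4, Trpm6 and Kcnd2, and the lower genes were Abcc8, Trpc6, Kcnh1, Kcnk16, Kcnma1, Kcns3, Kcnip3, Kcnd3 and Kcnk1. Among the 33 members above the olfactory receptor level 3 were higher and 9 lower, 36.4% beside 21.7% of all genes above it (8.11% higher and 13.6% lower). Among the 12 members above the 99th percentile 3 were higher and 4 lower, with 26.3% of all such genes called (9.52% higher and 16.8% lower). These shares are given as a description, with no test. In 5 of the 9 lower genes (Kcnk16, Kcnma1, Kcns3, Kcnip3 and Kcnd3) the LuPos mean was under the olfactory receptor level, and in Kcnd2 the LuNeg mean was, so that their fold changes are measured against a signal not above that reference. Those 5 lower genes count among the 33 members only through their LuNeg mean. The share of 36.4% thus depends in part on the difference it counts, as can that of all genes above the level. The median log2 fold change was -0.09 over the 33 members and -0.05 over all genes above the level. In 6 of the 33 members, 18.2%, no LuPos array overlapped a LuNeg array, and this held for 5.76% of all genes above the level: LuPos was the higher in Kcnk5, Kcnn4 and Trpm6 (2.57% of all such genes) and the lower in Abcc8, Trpc6 and Kcns3 (3.19%). Of these, Kcns3 passed the level only through its LuNeg mean. With arrays scaled to housekeeping genes, which raises every log2 fold change by 0.13, 7 members were higher and 6 lower. Of all genes 12.1% were then called, 1761 higher and 926 lower. In sorted bulk samples, fewer cells of a type and less RNA per cell cannot be told apart.

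**Figure D1:**
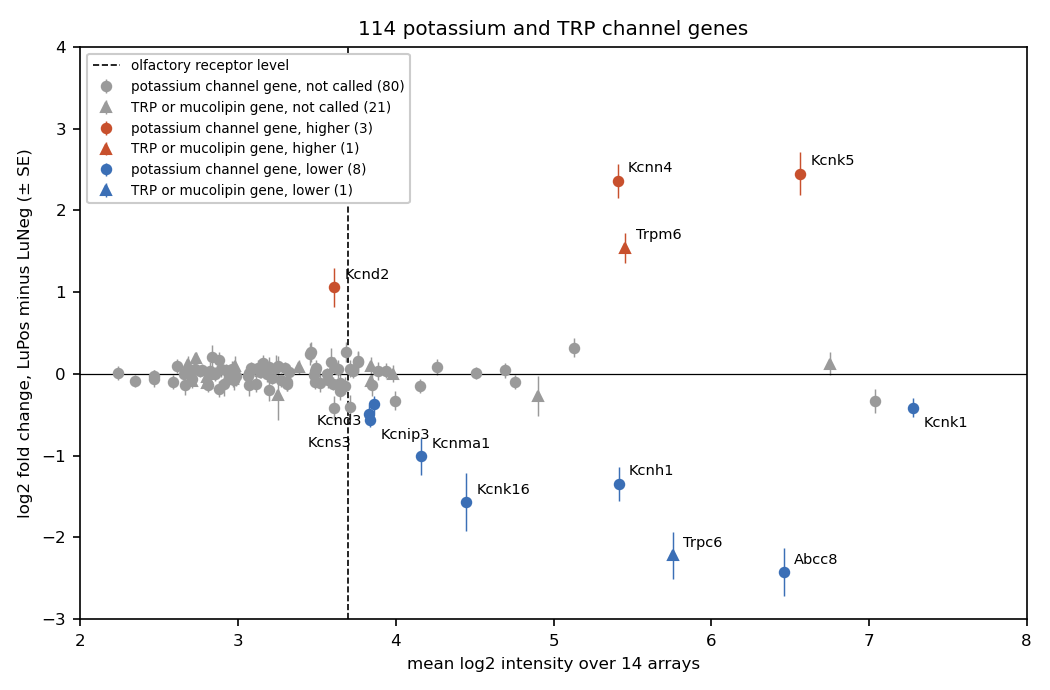
Mean log2 intensity over the 14 arrays (x axis) against the log2 fold change of LuPos over LuNeg with its standard error (y axis) for the 114 channel genes. Circles are potassium channel genes, triangles TRP or mucolipin genes, colour marks the limma call and the dashed line is the olfactory receptor level of 3.70; 12 of the 13 called genes sit to its right and Kcnd2 to its left.

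Among potassium channels that pass a background current, the tandem-pore-domain family, members moved in both directions. Kcnk5 encodes TASK-2, a background channel known from kidney tubules that responds to external pH. Its level ran from 4.47 (median 5.38) to 6.11 in LuNeg and from 7.15 (median 7.70) to 8.52 in LuPos. Every LuPos array lay above every LuNeg array, and the rise was 5.46-fold (log2 fold change 2.45, standard error 0.26, adjusted p = 0.000829 by limma, higher in 7 of 7 pairs). Kcnk16 encodes TALK-1, an alkaline-activated channel known from pancreatic islets. It ran from 4.06 (median 5.28) to 6.22 in LuNeg and from 2.99 (median 3.48) to 4.33 in LuPos, a fall by 1.57 on the log2 scale (standard error 0.36, adjusted p = 0.0204 by limma). The LuPos mean of 3.66 was under the olfactory receptor level, so the size of the fall is uncertain. The groups overlapped, since LuNeg replicates 4, 6 and 7 lay at 4.06, 4.32 and 4.42, near the highest LuPos arrays, while LuNeg replicates 1, 3 and 5 lay at 6.13, 6.22 and 6.17. In pair 4 LuPos was slightly the higher, and leaving out any of the pairs 1, 2, 3 or 5 took the call away (adjusted p from 0.0507 to 0.0593). Kcnk1, which encodes TWIK-1, had levels from 7.04 (median 7.49) to 7.81 in LuNeg and from 6.87 (median 6.94) to 7.45 in LuPos. This was a fall by 0.41 on the log2 scale (standard error 0.11, adjusted p = 0.0468 by limma) that only just passed, and without any pair but pair 6 it did not (adjusted p from 0.0675 to 0.116). Kcnk4, Kcnk7 and Kcnk15 lay above the olfactory receptor level and were not called, and the 7 other measured genes of the family lay under it.

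Kcnk5 and Kcnk16 are neighbours on chromosome 14, with no coding gene annotated between them in RefSeq, and the 2 genes differed between the populations in opposite directions. The 250 bases before each gene's start (RefSeq, assembly GRCm38.p6) are shown for these neighbours, for Kcnn4 as the gene with the smallest adjusted p of the family and for Trpc6 as a lower gene. Capitals mark matches, on either strand, to the forkhead motifs TGTTTAC and TGTTTGC, the nuclear receptor motif AGGTCA, the ETS core AGGAAG, the AP-1 motif TGANTCA and the Sp1 motif GGGCGG; the motifs were picked with the results known. Kcnk5 lies on the minus strand (chr14:20181783-20182032), Kcnk16 on the minus strand (chr14:20269270-20269519), Kcnn4 on the plus strand (chr7:24370013-24370262) and Trpc6 on the plus strand (chr9:8543892-8544141).
Kcnk5: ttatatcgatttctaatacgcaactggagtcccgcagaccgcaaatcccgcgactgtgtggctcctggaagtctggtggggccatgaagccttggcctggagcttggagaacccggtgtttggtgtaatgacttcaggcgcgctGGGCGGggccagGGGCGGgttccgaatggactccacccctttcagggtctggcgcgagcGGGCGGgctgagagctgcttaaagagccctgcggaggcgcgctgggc
Kcnk16: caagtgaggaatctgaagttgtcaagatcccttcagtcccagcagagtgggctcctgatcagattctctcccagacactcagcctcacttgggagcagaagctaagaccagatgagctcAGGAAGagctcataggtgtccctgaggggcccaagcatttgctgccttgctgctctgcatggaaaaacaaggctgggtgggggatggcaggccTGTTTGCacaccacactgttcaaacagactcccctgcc
Kcnn4: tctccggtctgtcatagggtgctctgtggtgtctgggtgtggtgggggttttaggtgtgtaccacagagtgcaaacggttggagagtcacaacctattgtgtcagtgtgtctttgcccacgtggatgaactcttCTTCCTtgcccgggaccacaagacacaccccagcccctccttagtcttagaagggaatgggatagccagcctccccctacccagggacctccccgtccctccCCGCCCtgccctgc
Trpc6: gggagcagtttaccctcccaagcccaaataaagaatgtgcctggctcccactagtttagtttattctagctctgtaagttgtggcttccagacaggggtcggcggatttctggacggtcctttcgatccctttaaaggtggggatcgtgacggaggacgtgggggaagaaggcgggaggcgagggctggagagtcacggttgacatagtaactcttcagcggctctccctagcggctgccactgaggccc
The Kcnk5 window holds 3 Sp1 matches, at 106, 94 and 47 bases before the start, and is 62.8% G and C. The Kcnk16 window holds an ETS match at 131 and the forkhead match TGTTTGC at 38 bases before the start, and is 54.8% G and C. The Kcnn4 window holds an ETS match at 116 and an Sp1 match at 14 bases before the start, and the Trpc6 window holds no match, which says only that these letters are not in it. Over all 32851 windows of this length, 32.7% hold the Sp1 motif, 29.5% the ETS core, 14% the nuclear receptor motif, 6.75% the AP-1 motif, 4.3% TGTTTGC and 3.17% TGTTTAC. An entry was found for 91 of the 114 members.

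Of the channels opened by internal calcium, one rose and one fell. Kcnn4 encodes KCa3.1, the intermediate-conductance channel that couples a rise of calcium to potassium efflux in many epithelia. It ran from 3.79 (median 4.12) to 4.90 in LuNeg and from 5.69 (median 6.78) to 7.01 in LuPos. No LuPos array reached down to the LuNeg arrays, and the rise was 5.15-fold (log2 fold change 2.36, standard error 0.21, adjusted p = 0.000406 by limma, 7 of 7 pairs). Kcnma1 encodes the large-conductance BK channel, which opens with calcium and voltage. It ran from 4.07 (median 4.58) to 5.29 in LuNeg and from 3.21 (median 3.72) to 4.07 in LuPos, a fall by 1.01 (standard error 0.23, adjusted p = 0.0197 by limma, lower in 7 of 7 pairs). The highest LuPos array only touched the lowest LuNeg array, and the mean LuPos level of 3.66 was under the olfactory receptor level. Kcnma1 has another, dimmer probe set with a mean of 2.61, on which the log2 fold change was -0.23 (adjusted p = 0.41 by limma). The call of Kcnma1 was lost without pair 2 (adjusted p = 0.056) and without pair 3 (adjusted p = 0.0515). The BK auxiliary genes Kcnmb1 (log2 fold change -0.11), Kcnmb2 (0.03), Kcnmb3 (0.07) and Kcnmb4 (-0.12) were not called. Kcnmb1, Kcnmb2 and Kcnmb4 lay under the olfactory receptor level and Kcnmb3 at its edge. Whether these probe sets could show a fall like that of Kcnma1 was not tested. Lrrc26, which encodes a BK partner outside these families and lets the channel open at rest, was at 6.90 ± 0.42 (SD, n = 7) in LuNeg and 5.98 ± 0.32 in LuPos, a fall by 0.93 (standard error 0.16, adjusted p = 0.00575 by limma). Of the other genes of this group, Kcnn3 lay just above the olfactory receptor level and was not called (log2 fold change -0.40, adjusted p = 0.124), and Kcnn1, Kcnn2, Kcnt1, Kcnt2 and Kcnu1 lay under it.

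A receptor subunit gene of ATP-sensitive channels fell, and its pore gene gave little signal and was not called. Such channels join a sulfonylurea receptor to an inward rectifier pore, Abcc8 (SUR1) with Kcnj11 (Kir6.2) and Abcc9 (SUR2) with Kcnj8 (Kir6.1), and close when ATP is high. Abcc8 ran from 7.12 (median 7.63) to 8.22 in LuNeg and from 4.04 (median 5.52) to 6.45 in LuPos. All LuPos arrays lay below all LuNeg arrays (5.37-fold lower, standard error 0.30 on the log2 scale, adjusted p = 0.00134 by limma), yet every one of them stayed above the olfactory receptor level. Kcnj11, which RefSeq places next to Abcc8, ran from 3.78 (median 4.17) to 4.55 in LuNeg and from 3.63 (median 3.86) to 4.08 in LuPos, with LuPos arrays near the olfactory receptor level. Its log2 fold change was -0.33 (95% interval -0.59 to -0.06, adjusted p = 0.125 by limma). Its LuNeg mean of 4.16 was near the olfactory receptor level of 3.70. Whether the probe set could show a fall like that of Abcc8 was not tested. Abcc9 had a log2 fold change of -0.14 (adjusted p = 0.64) with a mean of 3.85, little above the olfactory receptor level, and Kcnj8 of -0.003 (adjusted p = 0.992) with a mean of 2.85, under the olfactory receptor level. None of the 14 inward rectifier genes was called, and besides Kcnj11 the 3 above the level were Kcnj10, Kcnj12 and Kcnj14.

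**Figure D2:**
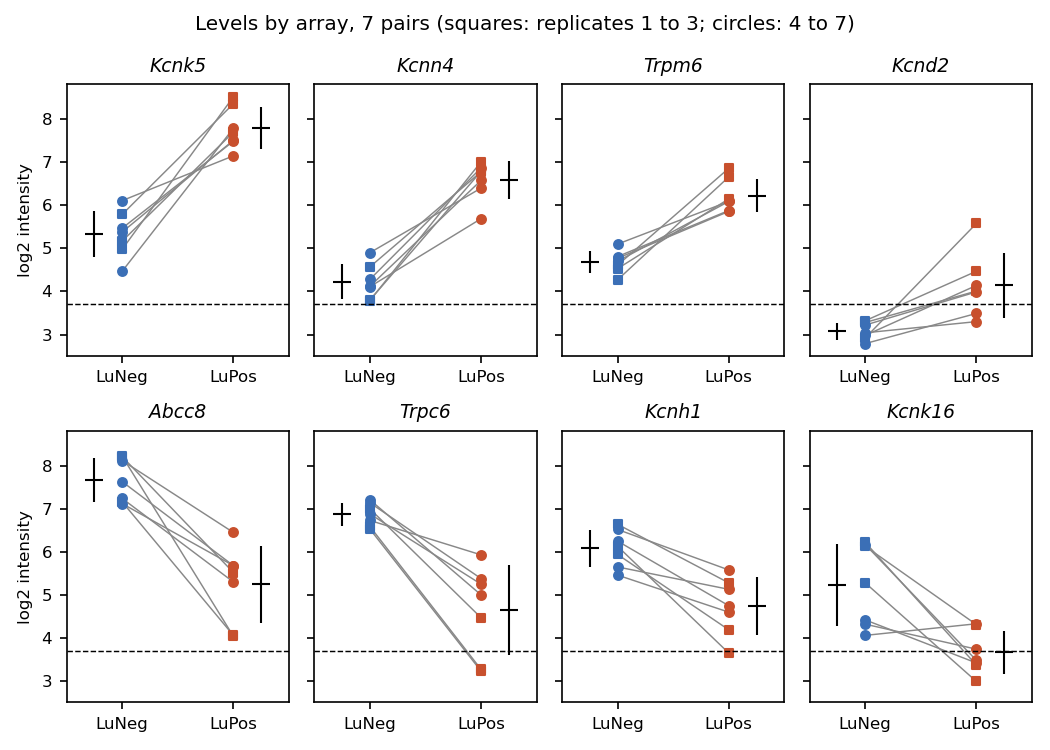
Log2 intensity (y axis) of 8 called channel genes on each array, LuNeg at left and LuPos at right of each panel, with lines joining the 7 pairs, bars for mean ± SD and the olfactory receptor level dashed. Kcnk5, Kcnn4 and Trpm6 rise and Abcc8 and Trpc6 fall with no overlap between the populations, while Kcnd2, Kcnh1 and Kcnk16 overlap or lie close to the dashed line in 1 population.

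Voltage-gated potassium channel genes were mostly near or under the olfactory receptor level. The exception with a large difference was Kcnh1, which encodes the ether-à-go-go channel Kv10.1. It ran from 5.46 (median 6.13) to 6.64 in LuNeg and from 3.65 (median 4.75) to 5.58 in LuPos. Only the highest LuPos array, replicate 5, passed the lowest LuNeg array, replicate 6, and the gene was 2.54-fold lower in LuPos (standard error 0.21 on the log2 scale, adjusted p = 0.00359 by limma, 7 of 7 pairs). Kcns3, a silent subunit that modifies Kv2 channels, was at 4.12 ± 0.25 in LuNeg and 3.55 ± 0.19 in LuPos (SD, n = 7), lower in all pairs with no overlap (log2 fold change -0.57, standard error 0.08, adjusted p = 0.00256 by limma). This is 1.48-fold, just under the 1.5-fold limit of the study's methods. The fast-inactivating Kv4 genes differed in direction. Kcnd2 (Kv4.2) ran from 2.79 (median 3.04) to 3.32 in LuNeg, under the olfactory receptor level in all 7 arrays, and from 3.30 (median 4.01) to 5.58 in LuPos. LuPos replicate 3 gave the value of 5.58, the next was 4.47, and the rise of 1.06 on the log2 scale (standard error 0.24, adjusted p = 0.0196 by limma, 7 of 7 pairs) was not called without pair 2 (adjusted p = 0.0517). Kcnd3 (Kv4.3) fell by 0.37 (standard error 0.10, adjusted p = 0.0424), and Kcnip3, which encodes the calcium-binding Kv4 partner also known as DREAM, fell by 0.49 (standard error 0.11, adjusted p = 0.0177). Kcnd3 went from 4.05 to 3.68 and Kcnip3 from 4.07 to 3.58, so that the LuPos means of both, as that of Kcns3, were under the olfactory receptor level. Kcnd3 lost its call when pairs were ignored (adjusted p = 0.0781) and when any of the pairs 1, 2, 3, 4 or 6 was left out (adjusted p from 0.0652 to 0.105). Kcna4 (Kv1.4) had levels of 7.20 ± 0.37 in LuNeg and 6.87 ± 0.47 in LuPos and was not called (log2 fold change -0.33, adjusted p = 0.217). Its other probe set had a mean of 2.36, against 7.04 for the one used, so that the 2 disagree on whether the gene gives signal at all. Kcna2, Kcna3 and Kcnc4 lay above the olfactory receptor level with log2 fold changes of 0.04, 0.01 and 0.09 and were not called. Kcnq1 had a mean of 3.46 and none of its partners Kcne1 to Kcne4 was above the level; Kcne1l, the other Kcne gene measured, was at 4.15 (log2 fold change -0.15, adjusted p = 0.348). The RNA Kcnq1ot1, antisense to Kcnq1 and known from imprinting, was at 4.97 ± 0.33 and 5.29 ± 0.34 (adjusted p = 0.136), and was called higher with the arrays scaled to housekeeping genes (adjusted p = 0.0395).

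**Figure D3:**
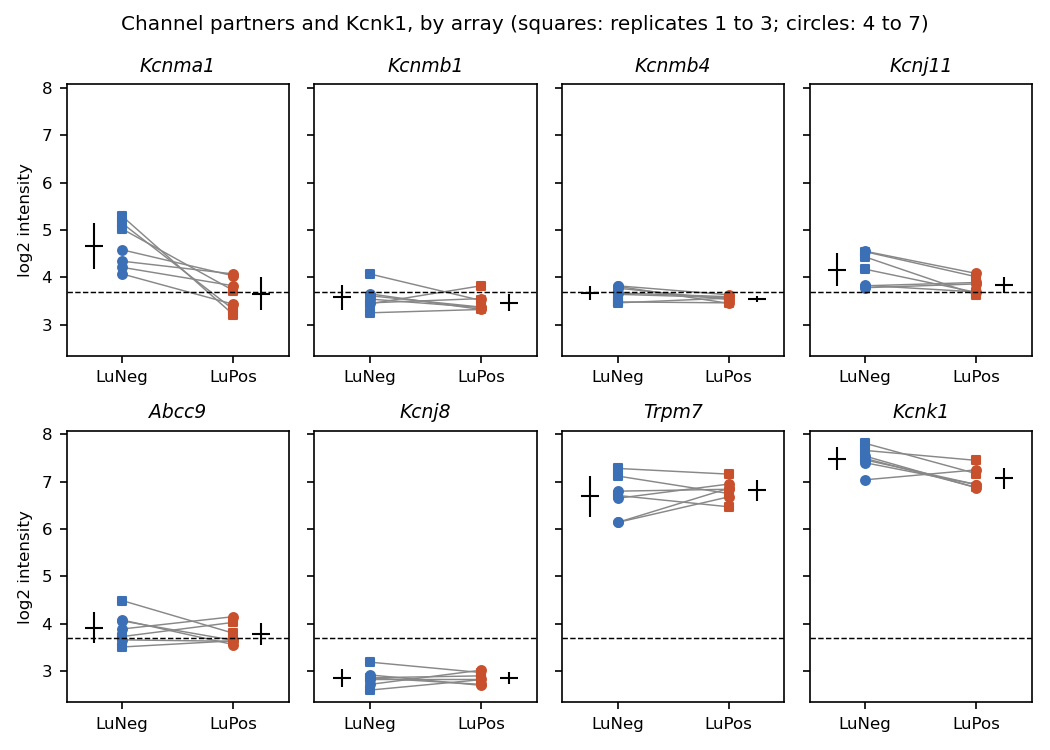
Log2 intensity (y axis) on each array for Kcnma1 and its auxiliary genes Kcnmb1 and Kcnmb4, the ATP-sensitive channel genes Kcnj11, Abcc9 and Kcnj8, and Trpm7 and Kcnk1, with LuNeg at left and LuPos at right, lines joining the 7 pairs, bars for mean ± SD and the olfactory receptor level dashed. Of these genes Kcnma1 and Kcnk1 were called lower, and Kcnj8 lies under the dashed line on every array.

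Among TRP genes, 1 rose and 1 fell. Trpc6 encodes a cation channel opened by diacylglycerol downstream of receptors that activate phospholipase C. It ran from 6.53 (median 6.88) to 7.21 in LuNeg and from 3.23 (median 5.00) to 5.93 in LuPos, 4.66-fold lower (standard error 0.28 on the log2 scale, adjusted p = 0.00155 by limma). The LuNeg arrays lay close together, with a standard deviation of 0.26, whereas the LuPos arrays had one of 1.05, and LuPos replicates 2 and 3 were under the olfactory receptor level. None of the other measured Trpc genes was called: Trpc2 and Trpc7 lay just above the level, with log2 fold changes of 0.004 and -0.09, and Trpc1, Trpc4 and Trpc5 under it. Trpm6 encodes a channel fused to a kinase that takes up magnesium in kidney and gut. It ran from 4.27 (median 4.70) to 5.10 in LuNeg and from 5.86 (median 6.09) to 6.86 in LuPos, 2.91-fold higher with no overlap (standard error 0.18 on the log2 scale, adjusted p = 0.00118 by limma). Its relative Trpm7, which is built alike and can join it in a channel, was at 6.69 ± 0.44 in LuNeg and 6.82 ± 0.22 in LuPos. That difference of 0.12 was not called (95% interval -0.19 to 0.44, adjusted p = 0.689 by limma). The interval lies below that of Trpm6, 1.13 to 1.96, but the 2 genes were not tested against each other. Trpm4, opened by internal calcium, varied more in LuPos (4.77 ± 0.75) than in LuNeg (5.04 ± 0.27) and was not called (adjusted p = 0.611). Trpv6, a calcium channel of absorbing epithelia, was at 3.79 ± 0.20 and 3.89 ± 0.30 (adjusted p = 0.712). Over all families, the 21 members above the olfactory receptor level that were not called had log2 fold changes from -0.40 to 0.32, and the 80 uncalled members at or under it from -0.42 to 0.27.

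Part of the spread within LuPos was shared between some of the lower genes. Abcc8, Trpc6 and Kcnh1 were lowest in LuPos replicates 2 and 3, at 4.06 and 4.04, at 3.27 and 3.23, and at 4.19 and 3.65, and each was highest in LuPos replicate 5, at 6.45, 5.93 and 5.58. Kcnk16 and Kcns3 were also lowest in replicates 2 and 3, at 2.99 and 3.37 and at 3.36 and 3.42, but highest in other replicates. The other lower genes went otherwise. The lowest LuPos array of Kcnma1 was replicate 1 (3.21), of Kcnip3 and Kcnd3 replicate 7 (3.13 and 3.53), and of Kcnk1 replicate 4 (6.87). The mean of the 8 hormone-sensing markers was also lowest in LuPos replicates 2 and 3, at 5.89 and 5.27. It lay between 6.22 and 6.60 on the other LuPos arrays, and its part in the channel values was not tested. All 13 called channel genes kept 1 direction when pairs 1 to 3 and pairs 4 to 7 were averaged apart, and in all 13 the larger mean difference came from pairs 1 to 3. This also held for 72.8% of the 2559 genes called in all. With pairs 1 to 3 first, the mean log2 difference was -3.32 against -1.75 for Abcc8, -3.05 against -1.60 for Trpc6, -1.73 against -0.46 for Kcnma1 and 2.09 against 1.14 for Trpm6. No label describes these sets of pairs, which were formed with earlier results of these data in view, and the difference between them was not tested.

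**Figure D4:**
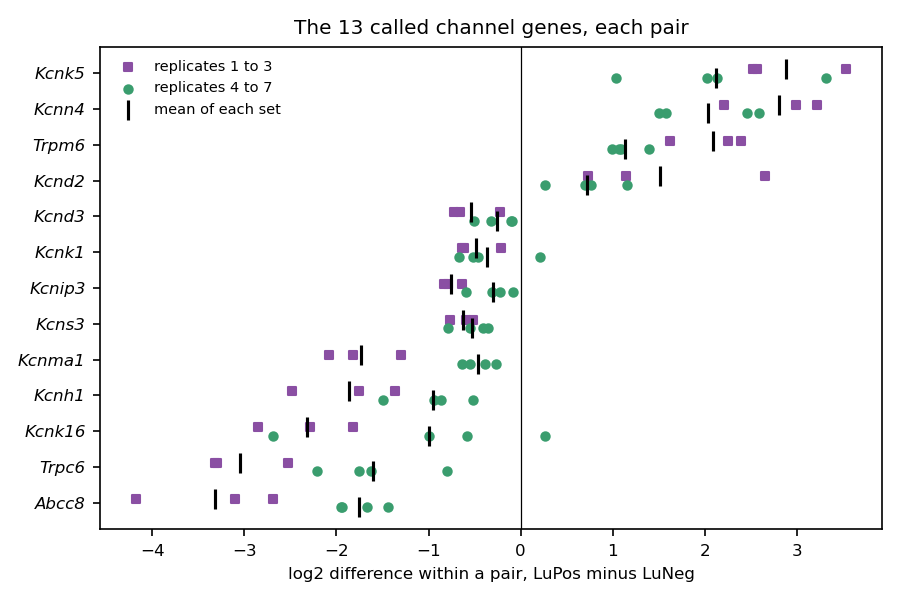
Log2 difference of LuPos minus LuNeg within each of the 7 pairs (x axis) for the 13 called channel genes (y axis); squares are replicates 1 to 3, circles replicates 4 to 7 and ticks the mean of each set. In every gene the mean of replicates 1 to 3 lies farther from 0, and Kcnk1 and Kcnk16 each have 1 pair on the other side of 0.

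Other genes of ion transport were read beside the channels, in 4 lists written from general knowledge with earlier results of these data known. Of 24 measured genes of sodium and potassium pumps and cotransport 1 was higher and 3 lower, 16.7% beside 11.5% of all genes. Slc12a2, the sodium-potassium-chloride cotransporter that loads secretory cells with chloride, was at 11.07 ± 0.28 in LuNeg and 10.08 ± 0.65 in LuPos (log2 fold change -0.99, standard error 0.22, adjusted p = 0.0195), and was not called without pair 2. Stk39, a kinase that activates this cotransporter, was 3.01-fold higher (adjusted p = 0.00143), and Fxyd2, a regulatory subunit of the sodium pump, 2.14-fold lower (adjusted p = 0.00212). Of 39 chloride and sodium channel genes 2 were higher and 7 lower (23.1%), with Scnn1a, the alpha subunit of the epithelial sodium channel, at 8.82 ± 0.25 in LuNeg and 7.41 ± 0.38 in LuPos (2.66-fold lower, adjusted p = 0.000404). Clca1 was 2.81-fold lower (adjusted p = 0.00402). The 2 higher genes were Clca3a1 (2.54-fold, adjusted p = 0.0129) and Lrrc8a (1.34-fold, adjusted p = 0.0294), and Lrrc8a was not called without pair 3, pair 5 or pair 7. Of 43 genes of calcium entry, stores and pumps 3 were higher and 6 lower (20.9%). The plasma membrane calcium pump gene Atp2b1 was 5.52-fold higher (6.32 ± 0.67 against 8.78 ± 0.32, adjusted p = 0.000962) and the secretory pathway pump gene Atp2c2 2.37-fold lower (adjusted p = 0.000495). The mechanically opened channels moved apart, Piezo1 up by 1.53 (standard error 0.18, adjusted p = 0.00113) and Piezo2 down (log2 fold change -1.95, standard error 0.32, adjusted p = 0.00462). Of 20 partners of potassium channels outside the symbol rule 2 were higher and 3 lower (25%); the ubiquitin ligase genes Nedd4 and Nedd4l, which remove channels from the membrane, were 1.27-fold and 1.42-fold higher, under the 1.5-fold limit of the methods, and Nedd4l was not called when pairs were ignored (adjusted p = 0.0758). Lrrc26 and the scaffold gene Akap9 were lower. All these adjusted p-values are from the same limma fit.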

How the data were processed

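RNA of 7 LuNeg and 7 LuPos samples was amplified, from 500 pg per the labels (the study's methods give another amount), and hybridised to Affymetrix whole-transcript mouse arrays. The deposited log2 intensities, 1 per probe set, were made by the authors with RMA in the Affymetrix Expression Console, with versions not given in the sources used here. RMA equalises the arrays and can compress differences of dim probe sets. Array medians lay between 3.46 and 3.58, and no 2 arrays were identical.

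Computed here, with R 4.3.3 and limma 3.58.1, were gene levels and tests. Of 41345 probe sets, 23521 had 1 symbol, 1820 had several (4 of them naming a channel) and 16004 had none listed; only the first were used, and the brightest probe set stood for a gene (8 members had more than 1). Populations were compared by lmFit and eBayes with the replicate number as a block, since the study's methods use a paired test. Deviations from the group means correlated within pairs at 0.166 to 0.256. For LuNeg replicates 1 to 6 the closest LuPos array was that of the same number. For LuNeg replicate 7, with the lowest correlation in its pair, it was LuPos replicate 6. P-values rest on how much the LuPos minus LuNeg difference varies from pair to pair, with each gene's variance drawn toward that of all genes. Alternatives were no pairing, the methods' t-test, other variance models, array weights, a filter on level, other uses of several probe sets, 2 scalings and leaving out pairs. Genes were named by rule: each called member, the 10 members of highest level, partners in a known channel, and up to 2 rises and 2 falls per transport list; other members are named to account for their family. The members and lists were chosen with earlier results of these data known. Promoter windows are from RefSeq, GRCm38.p6.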

Additional observations from a re-analysis of the deposited data

Results flagged for a closer look

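In each population the highest or lowest of the 7 arrays was set against its nearest neighbour for all 114 genes. In 25 of 228 such groups, 11%, the gap took more than 0.568 of the whole range, which chance alone gives in about 1 in 20. Of these, 18 belong to genes at or under the olfactory receptor level. The widest gap was that of Trpv2, a cation channel known from immune cells, at 5.52 in LuNeg replicate 4 with the next array at 3.48. Its other probe set had a mean of 3.01 in LuNeg and 2.93 in LuPos. The mean of the 12 immune markers on that array was 3.18. Only 2 of these markers lay above the olfactory receptor level, so their mean says little of immune cells, whose part was not tested. Trpv2 also stood apart at 3.47 in LuPos replicate 1. Among genes above the olfactory receptor level, Kcna4 was low at 5.94 in LuPos replicate 1 and Kcnq1ot1 was high at 5.67 in LuNeg replicate 3. Kcns3 was high at 4.67 in LuNeg replicate 7, which widens its difference between the populations in that pair. Kcna3 was at 4.89 in LuNeg replicate 3, Kcnk4 at 4.28 in LuNeg replicate 1, Kcna2 at 3.55 in LuPos replicate 1 and Trpv6 at 4.47 in LuPos replicate 3. Kcnmb2 was high in both samples of pair 5, at 3.04 in LuNeg and 3.06 in LuPos.

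The remaining values lie near or under the olfactory receptor level. In LuPos replicate 3, Kcna1 was at 3.52, Kcnab1 at 3.22, Kcnj16 at 2.68, Trpc5 at 3.02 and Trpv4 at 3.71. In LuPos replicate 1, Kcnk12 was at 3.68, Kcnq5 at 3.40 and Trpm3 at 3.11, and in LuPos replicate 2 Kcnj15 was at 3.94. In LuNeg, Kcnk12 was at 3.46 and Kcnk13 at 4.15 in replicate 4, Kcna7 at 2.87 and Kcnj1 at 3.35 in replicate 7, and Kcnj16 at 2.84 in replicate 2. LuPos replicates 1 and 3 gave 6 of the 25 values each.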

How the results depend on the processing

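Of the 13 called channel genes, Abcc8, Kcnh1, Kcnk5, Kcnn4, Trpc6 and Trpm6 were called under each of the 19 alternatives run, and none of the 13 changed direction. Without the replicate block 4 members were higher and 8 lower, with 9.19% of all genes called, and Kcnd3 was the call lost. By the methods' t-test 5 members were lower at the uncorrected threshold with 1.5-fold, and 3 after adjustment. Of all genes 7.94% and 3.72% were then called, beside 11.5% in the fit reported. Kcns3, Kcnip3, Kcnk1 and Kcnd3, each under 1.5-fold, were the lower members lost at the uncorrected threshold. Of the transport genes, 8 were higher and 19 lower in the fit reported. At the uncorrected threshold 5 of them were higher, and after adjustment 3 were higher and 10 lower. Scaling to 7 housekeeping genes, of which Hprt was itself called lower, added 0.13 to every log2 fold change: 7 members were then higher and 6 lower, with Kcnd3, Kcnip3 and Kcnk1 lost and Kcnh8, Kcnq1ot1 and Trpm3 gained. Of all called genes 1761 were then higher and 926 lower, against 964 and 1595. Leaving out 1 pair gave 3 to 4 higher and 5 to 8 lower members. It gave 7 to 8 higher and 12 to 16 lower transport genes, with 8.61% to 9.95% of all genes called. The lower members were 5 without pair 2 and without pair 3. Pairs 1 to 3 alone gave 5 lower members and 3 higher and 8 lower transport genes, with 4.27% of all genes called. Pairs 4 to 7 alone gave 3 lower members and 4 higher and 10 lower transport genes, with 3.66% of all genes called. Both fits had fewer samples. The members above the olfactory receptor level were 30 with vomeronasal receptor genes added, 37 by the higher population, 32 by the mean of probe sets and 12 at the 99th percentile. Signal near the olfactory receptor level limits what can be seen of most members.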
